A study of Mus musculus with 6 samples.

Results

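Galectins are a family of small lectins, proteins that bind β-galactose sugars on glycoproteins. The genes described here are 8 mouse genes of that family and its neighbourhood, namely Lgals1, Lgals2, Lgals3, Lgals4, Lgals8, Lgals9 and Lgals12, with Lgals3bp, which encodes a secreted glycoprotein that galectins bind. All 8 had a probe set annotated to that gene alone, each gene had 1 such probe set, and they are 8 of the 19550 genes measured this way. The family was selected on the measured Lgals1 values, which were higher in knockout livers that lacked vitamin C, so the values in those livers are a description and were not used as a test. Of the 8 genes, 6 had a mean over all arrays at or above the 25th percentile of genes (a value of 0.185) and entered the tests, and Lgals2 and Lgals12 lay below it.

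Liver RNA of male mice of the C57BL/6NCrSlc background was measured on 6 arrays, 2 in each of 3 groups. The mice of the first group lacked SMP30/GNL, the gluconolactonase encoded by Rgn that mice need to make ascorbic acid (AA, vitamin C), and received a diet without AA; they are called AA-deficient knockouts. The AA-supplemented knockouts had the same genotype and diet but drank water with AA and EDTA, at a dose said to keep tissue AA normal. The wild-type mice had the intact gene and ate the diet deprived of the vitamin, with water lacking it. The labels used here do not say whether the other groups also drank EDTA, how old the mice were or how many mice each array represents. The labels name no cell type to which the knockout is restricted.

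The deposited values are on a log scale and are read here as log10, since their span of 1213-fold on that reading would shrink to 8.48-fold on log2. Levels and differences are therefore given in log10 units, means with the SD of 2 arrays, and any fold depends on that reading. The array medians lay between 0.350 and 0.392, and arrays of one group correlated at 0.965 to 0.975 over all probe sets. Arrays of different groups correlated at 0.945 to 0.974, so the 2 ranges overlapped. AA-supplemented array 2 had the highest median and the highest lower quartile, and the 2 AA-supplemented arrays were the least alike of the 3 pairs. Rgn, the deleted gene, averaged 2.03 in wild type, 0.240 in AA-supplemented livers and 0.263 in AA-deficient livers. Hepatocyte genes were among the brightest probe sets, with Alb (albumin) at the 99.9 percentile of genes. Krt19, a bile duct keratin, stood at the 32.2 percentile and the adipocyte gene Adipoq at the 7.80 percentile. Other markers of these cells were brighter. The bile duct marker Sox9 averaged 0.576 in AA-deficient, 0.638 in AA-supplemented and 0.551 in wild-type livers. The adipocyte marker Fabp4 averaged 0.569, 0.648 and 0.677 in the same order. Of 6 bile duct and 6 adipocyte markers with a probe set, 4 of each lay above the filter. The labels do not state that paired arrays of a group stem from different mice, so p-values reflect sample-to-sample spread that could be technical.

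As background, galectins are made in the cytosol and leave the cell without a signal peptide. Outside the cell they cross-link glycoproteins such as integrins and growth factor receptors, and the branching of N-glycans in the Golgi sets how many binding sites those partners carry. Inside the cell several of them bind sugars exposed when endosomes or lysosomes rupture. In the liver, galectin-1 and galectin-3 are known mainly from stellate cells, endothelium and macrophages, while galectin-9 is known from Kupffer cells, the resident macrophages of the liver, and its expression is raised by interferon.

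Lgals1 (Entrez 16852, probe set 10425161) encodes galectin-1, a prototype galectin with a single sugar-binding domain that acts as a dimer. Its values were 1.43 and 1.40 in the AA-deficient knockouts, 0.946 and 1.08 in the AA-supplemented knockouts, and 0.961 on both wild-type arrays. Both AA-deficient arrays lay above all 4 others, while the AA-supplemented arrays lay on either side of the wild-type pair. The AA-deficient mean of 1.42 ± 0.022 exceeded the AA-supplemented mean of 1.01 ± 0.092 by 0.404 (SE 0.051), a 2.54-fold difference. It exceeded the wild-type mean by 0.454 (SE 0.051), or 2.85-fold. These differences are the reason the gene was chosen, so no p is attached to them. In absolute size, 0.280% of the 14662 genes tested had a larger difference between the knockouts and 0.416% a larger one between AA-deficient knockouts and wild type. Leaving out any single array kept the first difference between 0.339 and 0.470 and the second between 0.438 and 0.470.

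The comparison of AA-supplemented knockouts with wild type was not used in the choice, although it shares arrays with the other comparisons. There Lgals1 differed by 0.050 (SE 0.051, adjusted p = 0.791 in limma), with a 95% interval from -0.0689 to 0.168. All intervals given here are unadjusted for the number of genes. Without AA-supplemented array 2 the difference was -0.0157, and without array 1 it was 0.115, so its sign rests on a single array. In bulk liver, a change in the number of cells that make galectin-1 and a change in RNA per cell cannot be told apart.

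**Figure D1:**
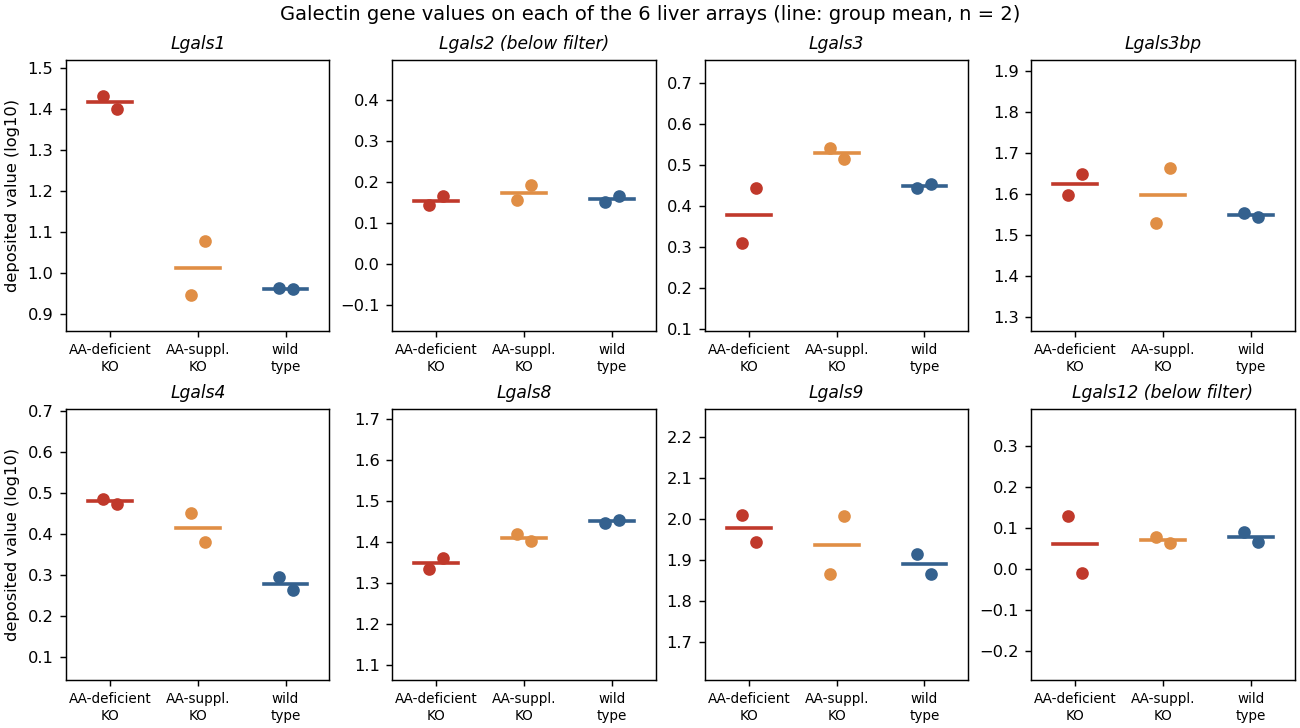
Deposited values (log10, vertical axis) of the 8 genes on each of the 6 arrays, by group, with a bar at each group mean; all panels span the same height of 0.66 log10 units at different offsets. Both AA-deficient arrays of Lgals1 (1.43 and 1.40) stand clear of the other 4, Lgals4 and Lgals8 step in opposite directions across the groups, and Lgals2 and Lgals12 lie below the filter.

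Of the tandem-repeat galectins, which carry a pair of different sugar-binding domains on one chain, Lgals4 (Entrez 16855, probe set 10551626) encodes galectin-4, best known from gut epithelium. Its values were 0.486 and 0.473 in AA-deficient knockouts, 0.449 and 0.379 in AA-supplemented knockouts, and 0.294 and 0.262 in wild type. The 3 groups did not overlap, and both knockout groups lay above wild type. AA-deficient knockouts exceeded wild type by 0.202 (SE 0.043, 1.59-fold) and exceeded AA-supplemented knockouts by 0.0651 (SE 0.043), the latter being 0.100 without AA-supplemented array 1 and 0.0301 without array 2. Between AA-supplemented knockouts and wild type the difference was 0.137 (SE 0.043, 1.37-fold, 95% interval 0.0367 to 0.237), which did not pass over all genes (adjusted p = 0.351 in limma). The sequences listed for this probe set include RefSeq transcript NM_010707 beside that of Lgals4, and the gene table used here places it in no gene, so the signal may not come from Lgals4 alone. Among the gut and exocrine pancreas markers examined, 4 of 9 with a probe set were above the filter, and of those 0 passed in any comparison in limma.

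Lgals8 (Entrez 56048, probe set 10407766) encodes galectin-8, a tandem-repeat galectin that marks ruptured endosomes for autophagy. It read 1.33 and 1.36 in AA-deficient knockouts, 1.42 and 1.40 in AA-supplemented knockouts, and 1.45 on both wild-type arrays. Its order was the reverse of that of Lgals4, again without overlap between any groups. The differences were small: -0.103 (SE 0.039) between AA-deficient knockouts and wild type, -0.0629 (SE 0.039) between the knockouts, and -0.0397 (SE 0.039, adjusted p = 0.781, 95% interval -0.131 to 0.0515) between AA-supplemented knockouts and wild type. Groups failed to overlap for 37.3% of all genes tested between the knockouts, 54.5% between AA-deficient knockouts and wild type, and 38.6% between AA-supplemented knockouts and wild type. Of the 6 galectin genes, 4, 5 and 3 did so in the same order, so clean separation of pairs of arrays was common among all genes.

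Lgals9 (Entrez 16859, probe set 10388902), the third tandem-repeat member, encodes galectin-9, a ligand of TIM-3, a surface protein of T cells. It read 2.01 and 1.94 in AA-deficient knockouts, 1.87 and 2.01 in AA-supplemented knockouts, and 1.92 and 1.87 in wild type. Lgals3bp (Entrez 19039, probe set 10393573), whose product binds galectin-3 and is induced by interferon, read 1.60 and 1.65 in AA-deficient knockouts, 1.53 and 1.66 in AA-supplemented knockouts, and 1.55 and 1.54 in wild type. Both genes had their 3 highest values on the same 3 arrays, the AA-deficient pair and AA-supplemented array 2. The AA-supplemented arrays differed from each other by 0.142 for Lgals9 and 0.132 for Lgals3bp, more than either gene differed between any 2 group means.

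The 250 bases before the RefSeq start of these 2 genes are shown because the pair had its highest values on the same arrays and both products are known as interferon-induced. They come from the RefSeq promoter table on GRCm38.p6, lie just outside the annotated genes on the minus strand, and are printed 5′ to 3′ with matches to an interferon response core, GAAA repeated after a gap of 2 bases on either strand, in capitals. The table held 6 of the 8 genes, all but Lgals1 and Lgals12.
Lgals3bp, chr11:118401960-118402209: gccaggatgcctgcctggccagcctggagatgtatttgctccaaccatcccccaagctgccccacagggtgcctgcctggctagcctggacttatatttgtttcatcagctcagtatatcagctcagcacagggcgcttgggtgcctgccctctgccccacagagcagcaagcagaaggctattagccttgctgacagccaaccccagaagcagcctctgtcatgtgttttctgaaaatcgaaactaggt
Lgals9, chr11:78984925-78985174: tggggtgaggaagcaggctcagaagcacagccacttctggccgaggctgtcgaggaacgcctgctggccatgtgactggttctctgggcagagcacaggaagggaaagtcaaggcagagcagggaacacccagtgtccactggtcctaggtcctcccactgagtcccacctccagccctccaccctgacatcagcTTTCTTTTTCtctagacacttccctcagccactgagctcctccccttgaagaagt
The Lgals9 window held 1 match, on the opposite strand, 55 to 46 bases before the start, and the other 5 windows searched held 0. The search asked for a gap of exactly 2 bases. Close to its start, the Lgals3bp window holds GAAA repeated after a gap of 3 bases (gaaaatcgaaa), which that search does not count. How often that wider spacing occurs in other windows was not counted. Of all 32851 promoter windows of that length, 2.98% held a match. Matches are letters in a window and were not measured as binding sites. Windows of 3 of the 6 genes (Lgals3, Lgals4 and Lgals8) held a CCAAT box (CCAAT), as did 33.8% of all windows, and 1, Lgals3, held a GC box (GGGCGG), as did 32.7%. The TATA box (TATAAA), the AP-1 motif (TGANTCA) and the antioxidant response element (TGACNNNGC) matched in 0 of the 6, against 12.4%, 6.75% and 10.2% of all windows. All motifs were searched on both strands.

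Beside these sequences stand the measured interferon genes. Of 26 listed, 22 had a probe set of their own and 21 were tested, and in limma 0 passed in each of the 3 comparisons. The medians of the 21 differences were 0.0163 between the knockouts, and 0.0215 and -0.0136 for AA-deficient and AA-supplemented livers against wild type. The chemokine gene Cxcl10 had the smallest p of the list in AA-deficient knockouts against wild type, with a difference of 0.443 (SE 0.115, adjusted p = 0.0710). Its arrays were far apart, at 0.571 and 0.829 in AA-deficient knockouts, 0.432 and 0.730 in AA-supplemented knockouts and 0.344 and 0.171 in wild type. Oasl1 had the smallest p between the knockouts and went the other way (difference -0.0720, adjusted p = 0.672). It read 0.664 and 0.642 in AA-deficient knockouts, 0.692 and 0.757 in AA-supplemented knockouts, and 0.806 and 0.805 in wild type. Parp14 had the smallest p in AA-supplemented knockouts against wild type (difference 0.185, adjusted p = 0.290). For the galectin pair, AA-supplemented knockouts exceeded wild type by 0.0465 for Lgals9 (SE 0.057, adjusted p = 0.828, 95% interval -0.0845 to 0.178) and by 0.0476 for Lgals3bp (SE 0.053, adjusted p = 0.808, 95% interval -0.0738 to 0.169). Without AA-supplemented array 2 these differences became -0.0247 and -0.0186. The Lgals9 value was also 0.0195 after quantile and 0.0221 after cyclic loess normalisation, and 0.0716 and 0.0215 without wild-type array 1 and 2. AA-deficient knockouts exceeded wild type by 0.0865 for Lgals9 and 0.0742 for Lgals3bp, and exceeded AA-supplemented knockouts by 0.0400 and 0.0266. The Lgals9 difference from wild type was 0.0532 without AA-deficient array 1. Both differences between the knockouts turned negative without AA-supplemented array 1, at -0.0312 for Lgals9 and -0.0396 for Lgals3bp, and were 0.111 and 0.0928 without array 2. Leaving out AA-deficient array 1 or 2 gave 0.00665 or 0.0732 for Lgals9 and 0.0513 or 0.00187 for Lgals3bp.

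On AA-supplemented array 2, Lgals1, Lgals3bp and Lgals9 read 0.131 to 0.142 above array 1, while Lgals3, Lgals4, Lgals8 and Lgals12 read lower than on array 1 and Lgals2 differed by 0.0355. Albumin read 2.37 on that array against 2.22 on array 1, and Apoa1, the main protein of high-density lipoprotein, 2.41 against 2.21. The part of this array's own shift in the galectin values was not tested.

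Lgals3 (Entrez 16854, probe set 10414360) encodes galectin-3, a chimera-type galectin with a single sugar-binding domain and a long flexible tail, abundant in activated macrophages. It read 0.311 and 0.445 in AA-deficient knockouts, 0.542 and 0.516 in AA-supplemented knockouts, and 0.444 and 0.454 in wild type. AA-supplemented knockouts were the highest group and did not overlap with either other group, whereas AA-deficient array 1 stood alone at the low end. The AA-deficient mean lay below the AA-supplemented mean by 0.151 (SE 0.052, 1.42-fold lower), the direction opposite to that of Lgals1, and the difference was -0.0839 without AA-deficient array 1. Against wild type the AA-deficient difference was -0.0705, and -0.00343 without that array. AA-supplemented knockouts exceeded wild type by 0.0804 (SE 0.052, adjusted p = 0.635 in limma, 95% interval -0.0391 to 0.200).

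Monocyte and neutrophil markers were set beside Lgals3. Of 12 listed, 5 were tested, and their summed level (log10 of the sum of linear values) was 1.04 to 1.06 in AA-supplemented knockouts, against 0.950 to 0.972 in AA-deficient knockouts and 0.961 to 0.964 in wild type. Of the 5, all were higher in AA-supplemented knockouts than in wild type and 4 were lower in AA-deficient livers than in AA-supplemented ones, 3 were higher in AA-deficient livers than in wild type, and 0 passed in any comparison in limma. Retnlg, a neutrophil gene, had the smallest p in AA-supplemented knockouts against wild type (difference 0.128) and between the knockouts (-0.132). It read 0.336 and 0.313 in AA-supplemented knockouts. Its values were 0.179 and 0.206 in AA-deficient knockouts and 0.196 on both wild-type arrays, near the filter value of 0.185. In AA-deficient knockouts against wild type S100a9 had the smallest p (difference -0.177, adjusted p = 0.343 in limma). Its arrays were far apart, at 0.274 and 0.0522 in AA-deficient knockouts and 0.413 and 0.267 in wild type. Of the 14 macrophage markers 9 were higher in AA-deficient than AA-supplemented livers (median 0.0339), the direction opposite to Lgals3, and 5 were lower. In AA-supplemented livers 11 were higher than in wild type (median 0.0186). Of that list Cd68, a macrophage lysosomal protein, had the smallest p in AA-supplemented knockouts against wild type (difference 0.118, adjusted p = 0.389). Between the knockouts Cd68 differed by -0.0788, the direction of Lgals3. Lyz2 had the smallest p of the list between the knockouts (difference -0.103, adjusted p = 0.425 in limma), also in the direction of Lgals3. It had the smallest p in AA-deficient knockouts against wild type as well (difference -0.0951). The part of these cells in the Lgals3 values was not tested.

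The 2 dim members varied least in their group means. Lgals2 (Entrez 107753, probe set 10430425), a prototype galectin of the gut, ranged from 0.144 to 0.193 over all 6 arrays, with overlapping groups. Lgals12 (Entrez 56072, probe set 10465701), known from adipocytes, where its protein sits on lipid droplets, ranged from -0.00885 to 0.130, and both extremes were AA-deficient arrays. The files carry no detection call, so neither gene can be told from background here. On probe sets of their own, no other galectin-like genes passed. Of Lgals6, Lgals7, Lgalsl and Grifin, 3 had a probe set and were tested, and 0 passed in any comparison in limma. The further transcript listed for the Lgals4 probe set was counted under Lgals4. Lgalsl, which encodes a galectin-related protein without sugar binding, read 1.04 and 0.982 in AA-deficient knockouts, 0.939 and 0.924 in AA-supplemented knockouts, and 0.894 and 0.912 in wild type. Its difference of 0.107 between AA-deficient knockouts and wild type had an adjusted p = 0.196.

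**Figure D2:**
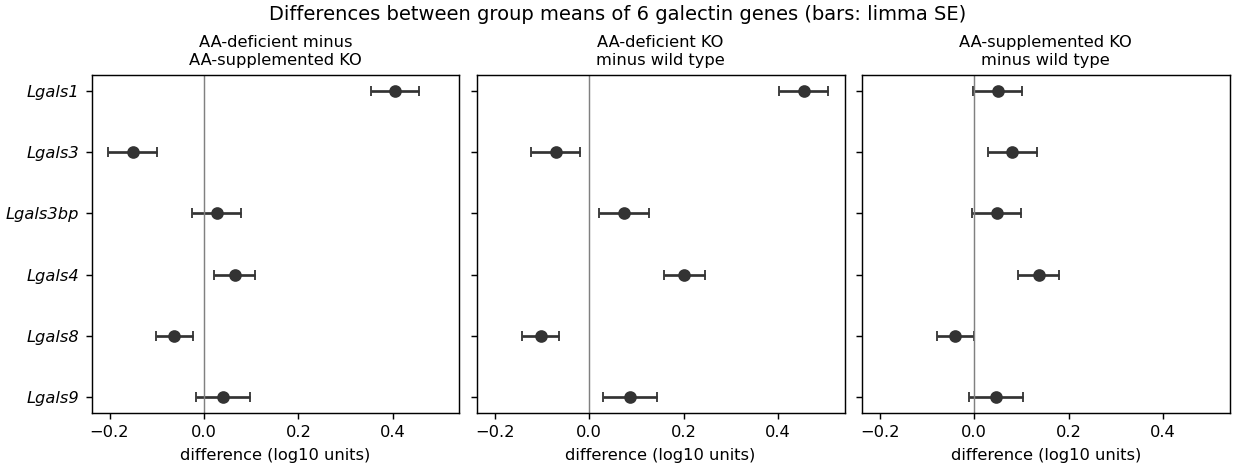
Differences between group means (log10 units, horizontal axis) of the 6 tested genes in the 3 comparisons, with the standard error from limma as bars. Lgals1 stands at 0.404 and 0.454 in the comparisons that involve AA-deficient knockouts and at 0.050 in the remaining one.

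Counted over the family, 1 of the 6 tested genes, Lgals1, lay past an adjusted p of 0.05 between the knockouts, where 0.205% of all genes did. Against wild type, 2 of 6 did in AA-deficient knockouts, Lgals1 and Lgals4, where 4.63% of all genes did. Since these contrasts served to choose the family, the counts describe it and nothing is read from them. In AA-supplemented livers against wild type 0 of 6 passed in limma, where 0.00682% of all genes passed (1 gene, the deleted Rgn). In that comparison 1557 genes had an unadjusted p under 0.05, and of the 6, Lgals4 had an unadjusted p of 0.0136. The median of the 6 differences was 0.0333 between the knockouts, and 0.0803 and 0.0487 for AA-deficient and AA-supplemented knockouts against wild type. The medians of all genes were 3.14e-05, -0.00335 and -0.00167. Signed medians over all genes lie near 0 whatever the size of the differences. In absolute size the medians were 0.0640, 0.0945 and 0.0487 for the 6 genes and 0.0410, 0.0565 and 0.0444 for all genes. The first 2 comparisons served to choose the family. The Lgals1 call between the knockouts was lost when any 1 of the 6 arrays was left out, and that against wild type when either wild-type array was left out. The Lgals4 call was lost without either AA-deficient array or either wild-type array, while its difference stayed between 0.186 and 0.218.

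Galectin binding sites are built by Golgi enzymes, of which 25 were listed and 21 tested. Of these, 0 passed between the knockouts, 1 fell in AA-deficient livers against wild type, and 0 passed in limma for AA-supplemented livers against wild type. The gene that fell was St3gal4, a sialyltransferase that caps galactose and so can mask galectin sites. It read 0.913 and 0.932 in AA-deficient knockouts, 1.12 and 1.07 in AA-supplemented knockouts, and 1.11 and 1.22 in wild type (AA-deficient minus wild type -0.240, SE 0.050, adjusted p = 0.0417). B4galt1, a galactosyltransferase that makes the N-acetyllactosamine unit galectins recognise, had the smallest p between the knockouts, at 1.09 and 1.08 in AA-deficient against 1.30 and 1.26 in AA-supplemented livers (difference -0.196, adjusted p = 0.141). The median of the list was -0.0156 between the knockouts and -0.0116 in AA-deficient knockouts against wild type. Over all 15 lists, 5 of 177 tested genes passed in AA-deficient livers against wild type, where 4.63% of all genes did. Calls in that comparison were thus no more common in the lists than among all genes.

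Of 24 known partners of galectins, such as integrins, lysosomal membrane proteins and growth factor receptors, 23 were tested. In AA-deficient knockouts against wild type 18 were higher in mean and 1 rose, Insr, the insulin receptor, which read 1.50 and 1.49 against 1.29 and 1.33 (difference 0.187, SE 0.041, adjusted p = 0.0470). Insr read 1.44 and 1.47 in AA-supplemented knockouts, also above both wild-type arrays. In AA-supplemented knockouts against wild type 18 were again higher in mean, with a median of 0.0572, and 0 passed. Both comparisons use the same wild-type arrays. Cd44, a hyaluronan receptor bound by galectin-9, had the smallest p there, at 0.894 on both AA-supplemented arrays against 0.657 and 0.675 in wild type (difference 0.227, SE 0.050, adjusted p = 0.199). Between the knockouts 16 of the 23 were lower in AA-deficient livers, with a median of -0.0249 and 0 past the threshold, and Nrp1, a galectin-1 partner on endothelium, differed by -0.179 (SE 0.056, adjusted p = 0.311).

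In the response to ruptured endosomes and lysosomes, where galectin-3, galectin-8 and galectin-9 act, 17 of 18 genes were tested. Mtor, the kinase of the nutrient-sensing complex on lysosomes, rose in AA-deficient knockouts against wild type, from 0.739 and 0.766 to 0.928 and 0.964 (difference 0.194, SE 0.041, adjusted p = 0.0424), and 11 of the 17 were lower in mean. In AA-supplemented knockouts it read 0.879 and 0.901 (difference from wild type 0.137, adjusted p = 0.329). Apart from Mtor, 0 genes of this list passed in any comparison. Lipid droplet proteins, among which galectin-12 is counted in adipocytes, were tested for all 19 genes listed. Cidec, which enlarges lipid droplets by fusing them, fell in AA-deficient knockouts to 0.211 and 0.203, from 0.626 and 0.723 in wild type (difference -0.467, SE 0.046, 2.93-fold lower, adjusted p = 0.00520). It read 0.483 and 0.507 in AA-supplemented knockouts (AA-deficient minus AA-supplemented -0.288, adjusted p = 0.0753), so its groups stepped down in the order opposite to Lgals4. Between the knockouts 15 of the 19 were lower in AA-deficient livers (median -0.0327), and 0 passed.

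**Figure D3:**
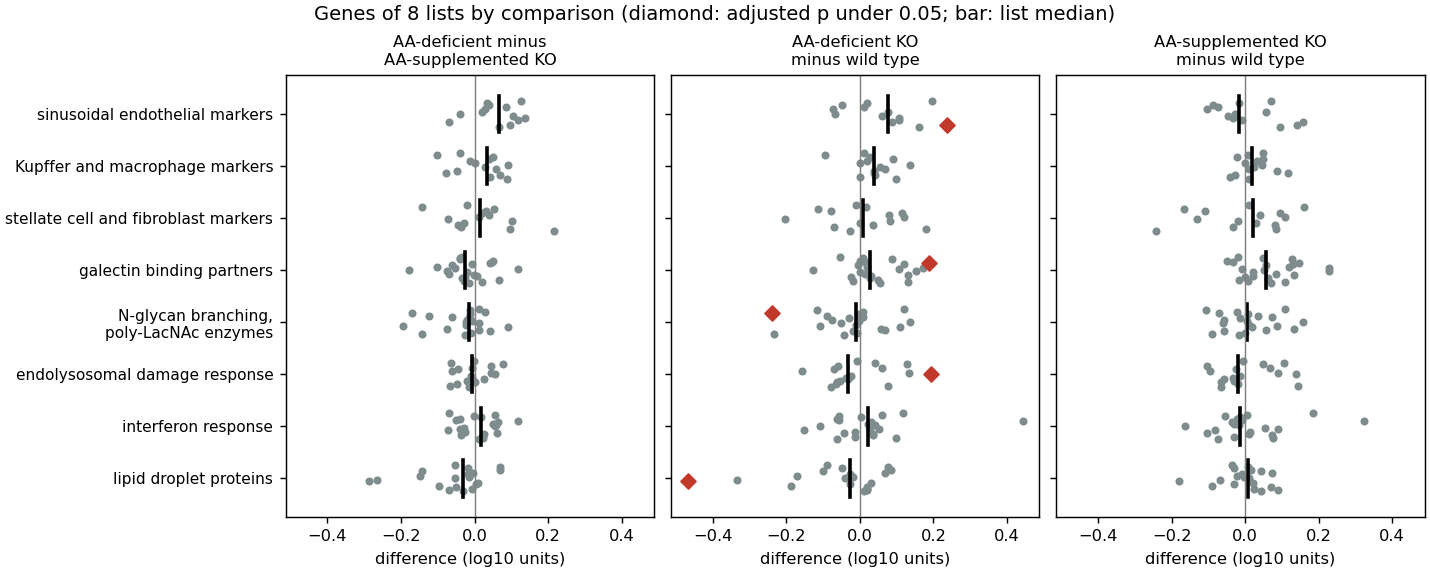
Differences (log10 units, horizontal axis) of every tested gene in 8 lists, by comparison; grey points did not pass, red diamonds passed at an adjusted p under 0.05, and black bars are list medians. The 5 diamonds all lie in AA-deficient knockouts against wild type, with Cidec farthest to the left at -0.467. Of all genes tested, 4.63% passed in AA-deficient knockouts against wild type. In the other comparisons 0 genes of these lists passed.

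Since Lgals1 is known from stellate cells, endothelium and macrophages, markers of these cells were set beside it. Of 13 sinusoidal endothelial markers, 11 read higher in AA-deficient livers than with AA supplied (median 0.0662) and 10 were higher than in wild type (median 0.0777). Stab2, a scavenger receptor of sinusoidal endothelium, rose against wild type from 0.814 and 0.903 to 1.09 and 1.11 (difference 0.237, SE 0.045, adjusted p = 0.0320). In AA-supplemented knockouts it read 1.01 and 0.995. The summed endothelial level was 2.26 to 2.29 in AA-deficient knockouts, 2.22 to 2.23 in AA-supplemented knockouts and 2.24 to 2.27 in wild type, so the AA-deficient and wild-type ranges overlapped. Of 14 macrophage markers, 9 read higher in AA-deficient livers than with AA supplied (median 0.0339) and 13 were higher than in wild type (median 0.0395), with 0 past the threshold and summed levels of 2.17 to 2.25, 2.14 to 2.24 and 2.17 to 2.18 in AA-deficient, AA-supplemented and wild-type livers.

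Stellate cell and fibroblast markers were tested for 14 of 15 genes, and 0 passed in any comparison in limma. Their median difference was 0.0160 between the knockouts and 0.00907 in AA-deficient knockouts against wild type, and 8 of 14 were higher in mean in each. The summed level was 2.02 to 2.05 in AA-deficient knockouts, 1.96 to 2.10 in AA-supplemented knockouts and 2.03 to 2.07 in wild type. Lrat, the retinol-storing enzyme of stellate cells, read 0.921 on both AA-deficient arrays, 0.580 and 0.831 in AA-supplemented knockouts, and 0.967 and 0.932 in wild type. Reln, another stellate cell gene, differed by 0.181 between AA-deficient knockouts and wild type (SE 0.041, adjusted p = 0.0507). Of the lymphocyte markers 6 of 13 were tested, of the bile duct markers 4 of 8 and of the adipocyte markers 4 of 7, and 0 of each passed in any comparison. The part of cell composition in the Lgals1 values was not tested.

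Genes whose values over the 6 arrays were most like those of Lgals1 were sought among the 2157 genes with at least 0.5 times its range. The 5 named genes with the highest Pearson coefficient were Gpam (0.991), which encodes the mitochondrial acyltransferase that starts glycerolipid synthesis, Ephx1 (0.981), the microsomal epoxide hydrolase, Fnip2 (0.980), a folliculin partner, Slc25a10 (0.979), the mitochondrial dicarboxylate carrier, and Tbc1d31 (0.960). The coefficients describe 6 arrays that share groups and carry no test, and a gene with high AA-deficient values scores highly by construction. Gpam read 1.59 and 1.54 in AA-deficient knockouts, 1.30 and 1.40 in AA-supplemented knockouts, and 1.32 and 1.29 in wild type. Like Lgals1, it was higher on AA-supplemented array 2 than on array 1. Fnip2 read 0.852 and 0.876 in AA-deficient knockouts and between 0.565 and 0.617 on the other 4 arrays. Lgals1 itself had a wider range over the arrays, 0.486, than any other galectin gene, the next being Lgals3 at 0.231.

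**Figure D4:**
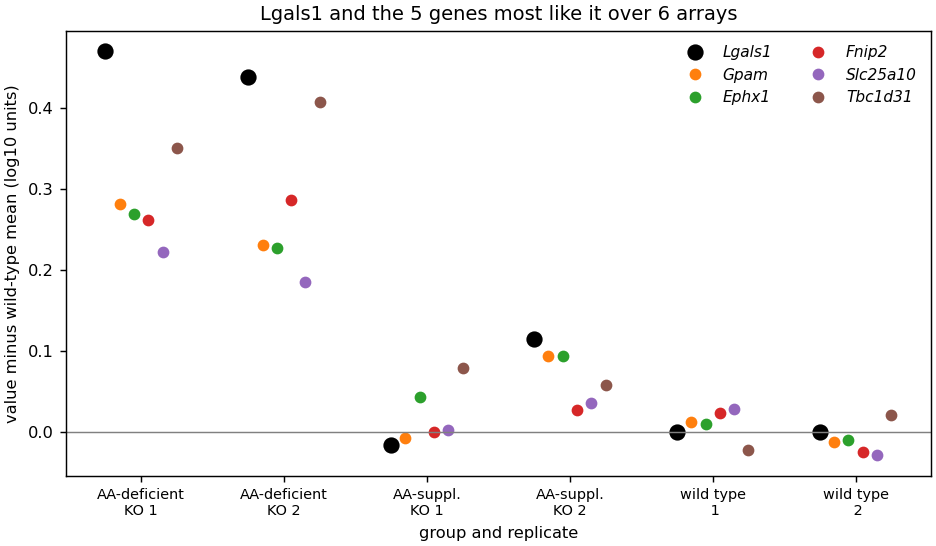
Values of Lgals1 and of the 5 genes most like it, each minus its own wild-type mean (log10 units, vertical axis), for each array by group and replicate number (horizontal axis). All 6 genes are highest on both AA-deficient arrays, and all but Tbc1d31 also read higher on AA-supplemented array 2 than on array 1.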

How the data were processed

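The galectin genes and the gene lists were chosen with earlier results of these data known. Total liver RNA was extracted with ISOGEN and biotin-labelled for GeneChip arrays, per the labels' protocols. The deposited table of the authors holds 1 column per array in log units, taken as log10; the log base and the steps from scan to value (correction, summary, scaling) are not given in the sources used. Genes were not centred and the array quantiles differed. Array medians were 0.377 and 0.364 in AA-deficient knockouts, 0.352 and 0.392 in AA-supplemented knockouts, and 0.367 and 0.350 in wild type.

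Of 34760 probe sets, 3995 held no value. Of the rest, 21161 had 1 symbol in the platform annotation, 1150 several and 8454 none, and those with several named no gene. The brightest probe set stood for a gene. The 14662 genes whose mean reached the 25th percentile were fitted with limma 3.58.1 in R 4.3.3 (lmFit, eBayes) on all 6 arrays, with 3 residual and 4.89 prior degrees of freedom, and p-values were adjusted by Benjamini-Hochberg over all of them. The fit was tested on simulated data. Besides all the galectin genes, those named were Rgn, up to 3 genes of smallest p past the threshold per list and comparison, and the 5 most like Lgals1. Where none passed, the 1 gene of smallest p was named for some lists and comparisons only. Markers named beside them (Alb, Apoa1, Krt19, Adipoq and Lrat among them) were in part picked after their values were seen. Of 218 list genes, 205 had a probe set and 177 were tested. The alternatives were other normalisations, filters and eBayes options, a replicate block, fewer arrays and the mean of probe sets. The number of arrays limits precision.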

Additional observations from a re-analysis of the deposited data

How the results depend on the processing

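Differences of the 6 galectin genes kept their sign in all alternatives but those leaving out AA-supplemented array 2, which turned AA-supplemented minus wild type to -0.0157 for Lgals1, -0.0186 for Lgals3bp and -0.0247 for Lgals9 (0.115, 0.114 and 0.118 without array 1), and array 1, which turned the difference between the knockouts for Lgals3bp and Lgals9 as given above. Calls depended far more on the settings; the cause was not tested. Between the knockouts 30 genes passed, and 12 after quantile normalisation, 57 after median centring, 11 after cyclic loess, 0 without a filter, 51 with a filter at the 50th percentile, 154 with a trend, 177 with a trend and robust fit, 0 with the 4 arrays compared (fewer samples), and 0 to 46 without single arrays. Lgals1, the 1 galectin gene past the threshold there, did not pass (0 genes) after quantile or cyclic loess normalisation, without a filter or with 4 arrays. Of the listed genes 0 passed, against 1 with the 50th percentile filter and 2 with either trend fit. In AA-deficient knockouts against wild type 679 genes passed, and 173 without a filter, 1057 with the 50th percentile filter, 1271 and 1312 with the trend fits, 1031 with 4 arrays and 1 to 1031 without single arrays; galectin genes went from 2 to 1 (Lgals1) after median centring or without a filter and to 0 to 2 without single arrays. Listed genes went from 5 to 1 without a filter, 11 with the 50th percentile filter, 15 and 14 with the trend fits, 10 with 4 arrays and 0 to 10 without single arrays: 1 without AA-deficient array 1, 2 without array 2 and 0 without either wild-type array. In AA-supplemented knockouts against wild type 1 gene passed, 8 after median centring, 94 and 116 with the trend fits and 0 of the galectin genes in any setting, with 1 to 7 genes without single arrays.

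The labels number the arrays 1 and 2 in each group without tying numbers to a shared mouse or batch. The difference of array 1 and array 2 correlated across genes at 0.358 between AA-deficient and wild-type groups but at -0.369 and -0.284 for the pairs with AA-supplemented knockouts. With the replicate block 4, 163 and 3 genes passed in the 3 comparisons in the order above, 0, 1 and 0 galectin genes and 0, 1 and 0 listed genes. With the numbers of the AA-supplemented arrays exchanged, an alternative chosen after seeing the data, 75, 1561 and 1 genes passed, 1, 2 and 0 galectin genes and 1, 16 and 0 listed genes.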
